A study of Rattus norvegicus with 6 samples.

Results

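The genes described are Gsta1, Gsta2, Gsta3, Gsta4 and Gsta5, which encode alpha-class glutathione transferases of the rat, measured in renal cortex after exposure to o-anisidine. Members were all non-control array probes whose RefSeq accession belongs to 1 of these 5 genes, and 9 of 61657 probes qualified: 1 for Gsta1, 2 for Gsta2, 3 for Gsta3, 2 for Gsta4 and 1 for Gsta5. The animals were male Sprague-Dawley (Crl:CD(SD)) rats bought at 5 weeks of age and kept on a basal diet. Of these, 3 control rats received water and 3 received o-anisidine hydrochloride, the salt of an aromatic amine, at 700 mg/kg/day, both for 4 weeks. Total RNA of each rat's renal cortex was hybridised to 1 single-colour (Cy3) Agilent array, and the comparison asks which transcripts differed between the groups.

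Glutathione transferases join the tripeptide glutathione to electrophilic compounds, which are then trimmed by peptidases and leave the cell as mercapturates. Alpha-class enzymes are dimers of the cytosol. In the kidney they are known as proteins of the proximal tubule, and their appearance in urine is used as a sign of damage to that segment. Besides conjugation they reduce lipid hydroperoxides and bind haem and bilirubin without reaction, which gave the class the name ligandin. Transcription of the class is known to respond to Nrf2, the factor of the antioxidant response element, and to the aryl hydrocarbon receptor at the xenobiotic response element.

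The symbols of the rat alpha class have been exchanged between genes over time, so each member is tied here to its RefSeq accession. In the RefSeq table of the GRCr8 assembly, Gsta1 (NM_031509) also carries older names that include Gsta3, Gsta5 and Yc1. Gsta3 (NM_001009920 and NM_001159739) carries Gsta5 and Yc2, so the older name Gsta5 is listed for both. Gsta2 (NM_017013) is also listed as Gsta1, and Gsta5 (NM_001010921) as Gsta2. Gsta4 (NM_001106840) has no other name there. On that assembly Gsta4, Gsta5 and Gsta2 lie on chromosome 8 in this order, and Gsta3 and Gsta1 lie on chromosome 9. Paralogues of the class are similar in sequence, and the probe sequences were not analysed here, so signal from a close relative in a probe cannot be told apart from that of its own gene. Each probe is therefore given apart.

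On each array between 41670 and 43630 probes were well above background, with no saturated spot. The processed signal's 75th percentile ranged from 923 to 1031. The 9 member probes were well above background on all 6 arrays, so none owed its place to the filter on dim probes. Values below are processed signals on the log2 scale, relative to the 75th percentile of their array, and a log2 change is the o-anisidine mean minus the control mean. All controls and o-anisidine 3 shared 1 slide, while o-anisidine 1 and 2 were on the other slide. Replicates are separate animals, and 3 arrays per group limit the precision of every value. In whole cortex, fewer cells of a type and less RNA per cell cannot be told apart.

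After o-anisidine every one of the 9 probes had a higher group mean than in controls, but the differences were small and none passed the test. The log2 changes ran from 0.21 for Gsta1 to 0.96 for the dimmest probe of Gsta3, or from 1.16-fold to 1.95-fold. Their median was 0.31 (1.24-fold), against -0.0044 over all 42036 probes tested. Past an adjusted p of 0.05 were 0 of 9 member probes (limma with Benjamini-Hochberg adjustment over all probes), where 0.069% of all probes passed, 19 probes (0.0452%) higher and 10 (0.0238%) lower. At an unadjusted p under 0.05 the count was 4 of 9, all higher, where 6.08% of all probes were higher by that rule. For 4 probes each o-anisidine array lay above each control array, against 9.17% of all probes, and for 0 each lay below, against 9.6%. These 4 were the 3 probes of Gsta3 and the probe of Gsta1, while both probes of Gsta2, both of Gsta4 and that of Gsta5 had groups that overlapped. That count moved both ways with the settings. It was 2 with quantile normalization, both of Gsta3, and 3 with the percentile taken over probes well above background on all arrays. It was 5 with normexp background correction or without o-anisidine 3, 7 without o-anisidine 2 or within 1 slide, and 9 without control 3. Counts from fewer arrays cannot be set against the main count, since groups then lie apart more readily. The shares of 9.17% and 9.6% hold for the main comparison only.

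**Figure D1:**
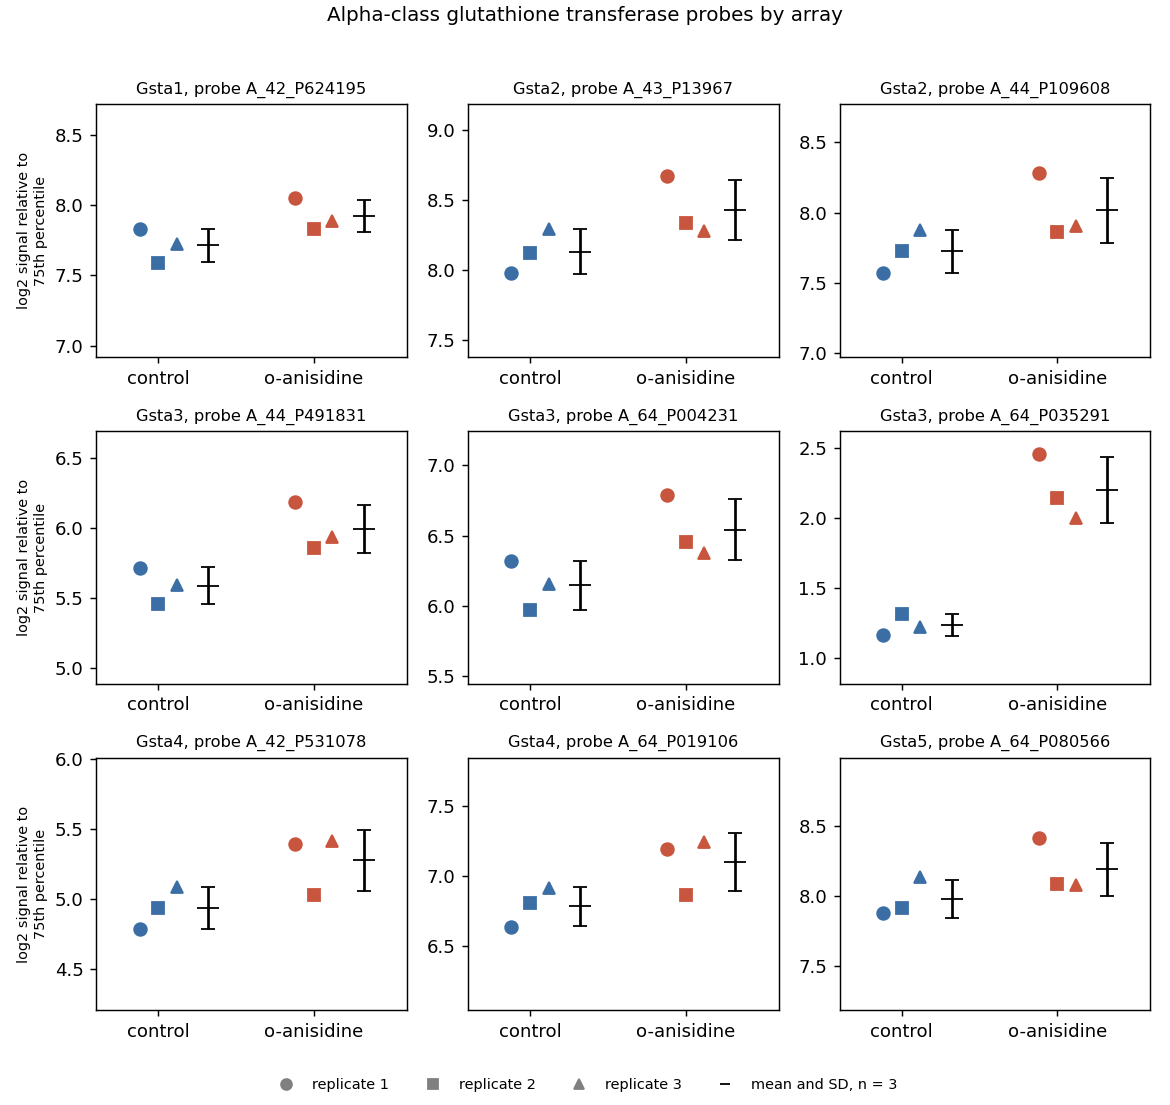
Log2 signal relative to the array's 75th percentile for the 9 probes in 3 control (blue) and 3 o-anisidine (red) arrays, with mean and SD; the vertical axes differ in position but span the same range. The Gsta3 probe A_64_P035291 shows the widest gap, with controls between 1.17 and 1.32 and o-anisidine arrays between 2.00 and 2.45.

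Gsta3 encodes the subunit long called Yc2, known in rat liver for conjugating the epoxide of aflatoxin and for its induction by antioxidants. Probe A_64_P035291, designed on NM_001159739, read 1.17, 1.32 and 1.22 in controls 1, 2 and 3 and 2.45, 2.14 and 2.00 in o-anisidine 1, 2 and 3. All treated values were well clear of the controls. The control mean was 1.24 ± 0.08 and the o-anisidine mean 2.20 ± 0.23 (SD, n = 3 each), a log2 change of 0.96 (SE 0.13, 95% interval 0.65 to 1.28). The adjusted p of this probe in limma was 0.0955, above the threshold. It passed with normexp background correction (adjusted p = 0.0338) and with limma's trended, robust variance estimate (0.0366), and over all 16 alternatives the adjusted p lay between 0.0338 and 0.263.

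The other Gsta3 probes gave smaller values. Probe A_64_P004231, designed on the same accession, read 6.32, 5.97 and 6.15 in controls and 6.79, 6.46 and 6.38 after o-anisidine. Its groups were apart by 0.06 on the log2 scale, with a log2 change of 0.39 (SE 0.14, limma adjusted p = 0.385). Within the slide that held both groups, where o-anisidine 3 stands against the 3 controls, its log2 change was 0.23. The other slide held no control, so a fit with slide as a block gives only the values of the slide that held both groups. The treated arm of that fit is 1 array. Probe A_44_P491831, designed on NM_001009920, read 5.72, 5.46 and 5.60 in controls and 6.18, 5.86 and 5.94 after o-anisidine, a log2 change of 0.40 (SE 0.12, limma adjusted p = 0.300). These 2 probes gave nearly the same change, and the ratio between them moved by 0.0073 on the log2 scale.

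The dim probe stood apart from both. The log2 ratio of A_64_P004231 to A_64_P035291 was 5.15, 4.65 and 4.93 in controls and 4.33, 4.32 and 4.38 after o-anisidine, so the groups did not overlap and the changes differed by 0.57. For A_44_P491831 against A_64_P035291 the difference was 0.56, again without overlap. Each had an exact two-sided permutation p = 0.1, the smallest that 3 arrays against 3 allow, and 0.25 after Benjamini-Hochberg adjustment over the 5 pairs of probes within a gene. For Gsta3 as a whole the array therefore gives unequal values, 1.31-fold and 1.32-fold on the brighter probes and 1.95-fold on the dim probe.

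Gsta1 encodes the subunit once called Yc1, a close relative of the Gsta3 product. Its probe A_42_P624195 read 7.83, 7.59 and 7.72 in controls and 8.05, 7.83 and 7.88 after o-anisidine. The lowest treated array lay above the highest control by only 0.0037, a gap far smaller than the SD within either group. The mean went from 7.71 ± 0.12 to 7.92 ± 0.12 (SD, n = 3 each), a log2 change of 0.21 (SE 0.10, limma adjusted p = 0.470). Quantile normalization gave 0.08.

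**Figure D2:**
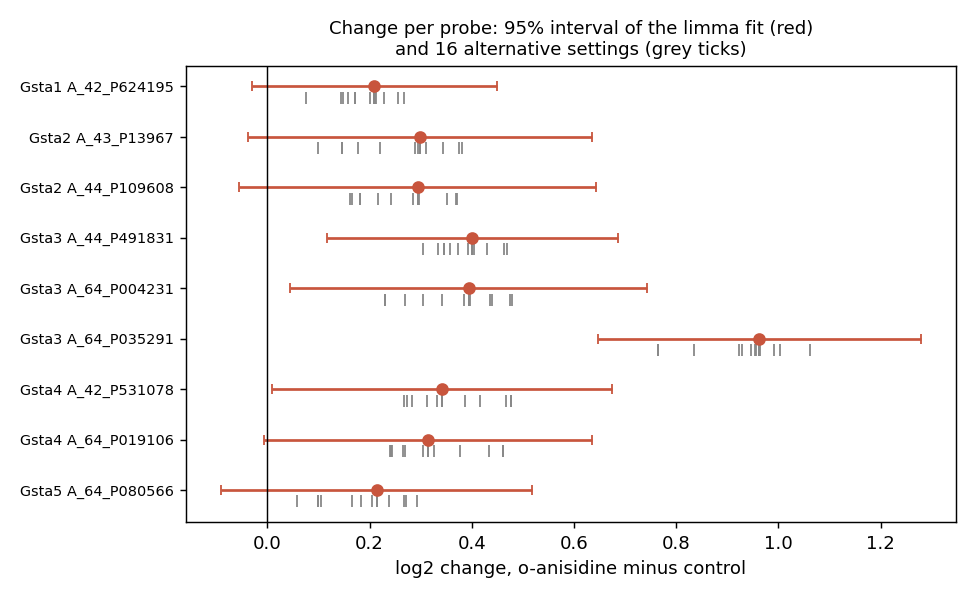
Log2 change (o-anisidine minus control) of each probe with the 95% interval of the limma fit in red, and the values under 16 alternative settings as grey ticks. No tick falls below 0, and the intervals of 4 probes, all 3 of Gsta3 and A_42_P531078 of Gsta4, exclude 0 before adjustment.

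RefSeq promoter windows (GRCr8, 250 bases before to 50 after the annotated start) were at hand for all 5 genes, with a second start for Gsta3. The windows of Gsta1, Gsta3 and Gsta2 are printed since these hold the letters TGACNNNGC, the core of the antioxidant response element. They are read 5′ to 3′ on the gene's strand, and capitals mark matches on either strand to TGACNNNGC or to GCGTG, the core of the xenobiotic response element. The Gsta1 window is chr9:31216483-31216782 (minus strand), the Gsta3 window chr9:31154739-31155038 (plus strand) and the Gsta2 window chr8:88077043-88077342 (minus strand).
Gsta1: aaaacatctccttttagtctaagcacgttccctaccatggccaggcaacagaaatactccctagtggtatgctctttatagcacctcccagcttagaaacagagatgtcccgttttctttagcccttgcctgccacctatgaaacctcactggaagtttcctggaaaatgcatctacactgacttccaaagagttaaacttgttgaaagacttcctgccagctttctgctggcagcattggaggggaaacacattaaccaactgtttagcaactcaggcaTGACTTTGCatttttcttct
Gsta3: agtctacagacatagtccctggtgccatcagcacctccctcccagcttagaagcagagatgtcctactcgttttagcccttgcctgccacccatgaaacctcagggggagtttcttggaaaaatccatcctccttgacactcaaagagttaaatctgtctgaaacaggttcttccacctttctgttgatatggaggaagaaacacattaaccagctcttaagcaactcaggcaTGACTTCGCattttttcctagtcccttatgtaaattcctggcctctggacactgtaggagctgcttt
Gsta2: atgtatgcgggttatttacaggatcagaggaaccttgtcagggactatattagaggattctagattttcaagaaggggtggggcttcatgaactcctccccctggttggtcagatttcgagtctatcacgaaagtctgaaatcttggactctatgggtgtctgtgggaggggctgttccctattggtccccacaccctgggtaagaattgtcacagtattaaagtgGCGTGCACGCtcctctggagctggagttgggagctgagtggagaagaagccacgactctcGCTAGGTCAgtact
In the Gsta3 window the match TGACTTCGC lies at bases -17 to -9 from the start, and in the Gsta1 window TGACTTTGC lies at 31 to 39 after it. The Gsta1 and Gsta3 windows were the most alike of the 15 pairs of windows, with 57.7% identical columns in a global alignment and a longest shared run of 20 bases. The Gsta2 window holds TGACCTAGC on the opposite strand at 37 to 45. It also holds GCGTG on both strands in adjoining positions, from -24 to -15. GCGTG occurs 3 times in the Gsta4 window and 1 time in that of the second Gsta3 start, and the Gsta5 window holds neither core. Of 33469 RefSeq promoter windows of that length, 12.1% held TGACNNNGC and 29.7% GCGTG. Matches on the 2 strands were counted alike, and the cores do not overlap in these windows. A match is a run of letters, and binding was not measured.

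Gsta2 encodes a subunit of the Ya type, the kind that forms ligandin. Probe A_43_P13967 read 7.98, 8.12 and 8.29 in controls and 8.67, 8.34 and 8.28 after o-anisidine. Only o-anisidine 1 stood clear, and o-anisidine 3 lay just under the highest control. The log2 change was 0.30 (SE 0.14, limma adjusted p = 0.464). It was 0.15 within the slide that held both groups, 0.10 with quantile normalization and 0.18 without o-anisidine 1. The other probe, A_44_P109608, read 7.57, 7.73 and 7.87 in controls and 8.28, 7.86 and 7.90 after o-anisidine, a log2 change of 0.29 (SE 0.14, limma adjusted p = 0.485). Here too o-anisidine 1 alone was far above the controls, and the value was 0.16 without it, 0.18 within the slide and 0.17 with quantile normalization. The 2 probes of Gsta2 differed in their change by 0.0040 on the log2 scale.

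Gsta5, the neighbour of Gsta2 and Gsta4 on chromosome 8, had the highest adjusted p of the 5 genes. Probe A_64_P080566 read 7.88, 7.92 and 8.13 in controls and 8.41, 8.08 and 8.08 after o-anisidine. Again o-anisidine 1 was high, while o-anisidine 2 and 3 lay below control 3. The log2 change was 0.21 (SE 0.12, limma adjusted p = 0.555), with 0.10 within the slide that held both groups, 0.06 with quantile normalization and 0.10 without o-anisidine 1.

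Gsta4 encodes the enzyme of the class that prefers hydroxynonenal and related aldehydes of lipid peroxidation. Probe A_64_P019106 read 6.63, 6.81 and 6.91 in controls and 7.19, 6.86 and 7.24 after o-anisidine. Here o-anisidine 1 and 3 were above all controls and o-anisidine 2 was among them. The log2 change was 0.31 (SE 0.13, limma adjusted p = 0.429). Probe A_42_P531078 read 4.79, 4.93 and 5.08 in controls and 5.39, 5.02 and 5.41 after o-anisidine, a log2 change of 0.34 (SE 0.14, limma adjusted p = 0.418). The probes of Gsta4 differed in their change by 0.03. Unlike the other members they gave larger values within the slide that held both groups, at 0.46 and 0.48.

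Over the 9 probes the median shift from the control mean was 0.54, 0.14 and 0.23 in o-anisidine 1, 2 and 3 and -0.10, -0.01 and 0.13 in the controls. All 9 probes in o-anisidine 1 exceeded every control, against 5 in o-anisidine 2 and 7 in o-anisidine 3. The shift of o-anisidine 2 is thus close to that of control 3. Without o-anisidine 2 the median log2 change was 0.43 and without control 3 it was 0.38, whereas without o-anisidine 1 it was 0.27.

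The members also varied among rats of the same group, and for most probes the order of the control rats differed by chromosome. Among controls, all 5 probes of the chromosome 8 genes (Gsta2, Gsta4 and Gsta5) were lowest in control 1 and highest in control 3. The probe of Gsta1 and the 2 brighter probes of Gsta3, on chromosome 9, were highest in control 1 and lowest in control 2. Gsta6, an alpha-class gene close to Gsta1 on chromosome 9 and not a member, followed the latter order, at 2.71, 2.29 and 2.40 in controls 1, 2 and 3. It had a log2 change of 0.11 (SE 0.16, limma adjusted p = 0.816). The dim probe of Gsta3 had neither order, being highest in control 2. Among treated rats o-anisidine 1 was highest for every probe except those of Gsta4, which were highest in o-anisidine 3.

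Correlations of the deviations from the group means, over 6 arrays that share labelling and scaling, followed that pattern in part. Probes of the same gene had a median r of 0.945 over 5 pairs, from 0.462 to 0.994, the lowest being pairs with the dim Gsta3 probe. Gsta1 and the brighter Gsta3 probes had r of 0.989 and 0.946. Gsta2 and Gsta5 had 0.974 and 0.966, and Gsta4 with Gsta2 or Gsta5 had 0.49 to 0.678. Pairs across the chromosomes had a median of 0.416 over 20 pairs, from -0.074 to 0.811. Among these, Gsta5 had 0.52 to 0.736 with the chromosome 9 probes, against 0.599 and 0.523 with Gsta4 on its own chromosome. The dim Gsta3 probe correlated with those of Gsta2 at 0.811 and 0.798, above its 0.462 and 0.545 with the other probes of its own gene. Signal shared between close paralogues through one probe was not tested.

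**Figure D3:**
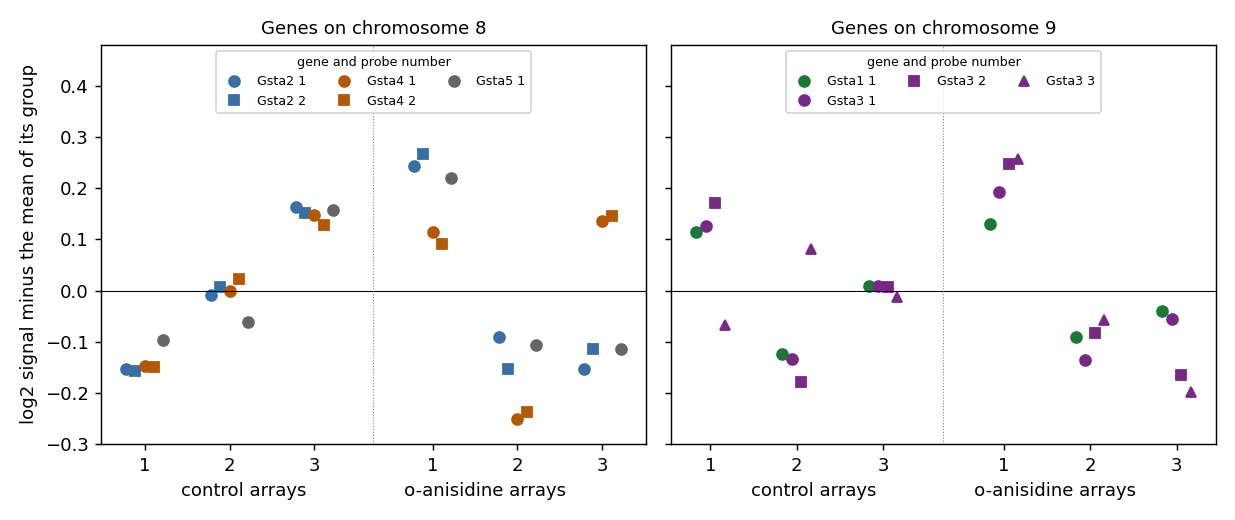
Log2 signal minus the mean of its group for each probe, by array (controls left and o-anisidine right of the dotted line), for genes on chromosome 8 and on chromosome 9; probe numbers follow the order of the probes in the plot by array. On chromosome 8 all 5 probes are lowest in control 1, whereas 3 of 4 on chromosome 9 are highest there.

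Whether the genes changed unequally was compared through the log ratio of their brightest probes, over 10 pairs. For 1 pair the groups did not overlap: Gsta1 over Gsta3 was 1.51, 1.62 and 1.57 in controls and 1.27, 1.38 and 1.51 after o-anisidine, a difference of -0.18. The closest arrays were 0.003 apart. The exact permutation p was 0.1, or 1 after Benjamini-Hochberg adjustment over the 10 pairs. The other differences lay between -0.10 and 0.18 on the log2 scale, with exact permutation p from 0.2 to 1.

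Other genes of the pathway were examined by list, 91 genes in all, of which 1 passed the threshold against 0.0832% of genes with a symbol. Among 17 tested glutathione transferases of other classes with Gsta6, 0 passed, 15 had a log2 change above 0 and the median was 0.28. Their smallest p was that of Gstp1, the pi-class enzyme, with a log2 change of 0.78 (SE 0.12, limma adjusted p = 0.111). In 7 of the 17 each treated array lay above each control, where 9.16% of genes with a symbol did. Gstm3, 1 of these 7, was kept only through its o-anisidine arrays, being well above background on 2 control arrays. Its place in the count depends in part on the filter. The tested targets of Nrf2 or the aryl hydrocarbon receptor outside the class had a median of 0.48, with 15 of 15 above 0 and 7 without overlap. Of the 19 targets named, Cyp1a2 and Cyp1b1 had no probe that was kept, and Aldh1a7 and Tiparp matched none. Cyp1a1, the monooxygenase induced through the aryl hydrocarbon receptor, passed (limma adjusted p = 2.02e-06) and was kept through its o-anisidine arrays. In controls it was well above background on 0 of 3 arrays, and it was at least 23.8-fold higher after o-anisidine, its controls being set at each array's lowest signal well above background. The members' median of 0.31 lay near that of the other transferases and below that of the other targets, a difference that was not tested.

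The remaining lists had 0 genes past the threshold. Of 14 genes that supply and recycle glutathione 10 were above 0, with a median of 0.13, and 3 lay higher and 2 lower without overlap. Idh1, which makes NADPH in the cytosol, had the smallest p (log2 change -0.93, SE 0.15, limma adjusted p = 0.118). Of 16 genes that process and export conjugates 12 were above 0, with a median of 0.11, and 3 lay higher without overlap. Acy3, the aminoacylase that deacetylates mercapturates, had 0.53 (SE 0.12, limma adjusted p = 0.203). The list of factors known to act on alpha-class promoters, which pools activators and repressors, had a median of -0.04 over 18 genes, with 8 above 0. It also holds Keap1, a protein that binds Nrf2 and not a promoter. Of the 18 genes, 5 lay lower without overlap (Keap1, Ahrr, Nr1i3, Nr3c1 and Hnf4a) and 1 higher (Mafk). Over all genes with a symbol, 10.2% lay lower and 9.16% higher. Nr1i3 was kept only through its control arrays, being well above background on 3 of these and on 2 o-anisidine arrays. Its place in the count depends in part on the filter. Hnf4a had a log2 change of -0.71 (SE 0.11, limma adjusted p = 0.111) and Nfe2l2, which encodes Nrf2, of -0.04. Genes that remove lipid aldehydes and peroxides, the substrates of Gsta4, had a median of -0.05 over 11 genes, 2 of them higher without overlap. The smallest p was that of Gpx4, the lipid hydroperoxide peroxidase (log2 change 0.23, SE 0.07, limma adjusted p = 0.304).

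**Figure D4:**
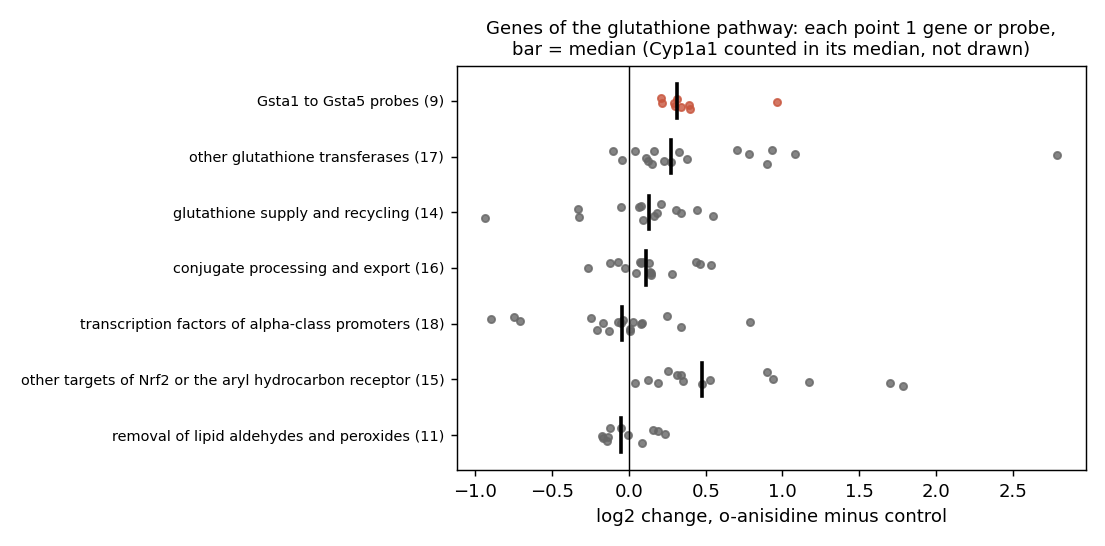
Log2 change (o-anisidine minus control) of the 9 member probes (red) and of the tested genes of 6 pathway lists (grey), with the number of points in parentheses and bars at the medians. The member probes lie between 0.21 and 0.96, and the median of the targets of Nrf2 or the aryl hydrocarbon receptor is 0.48.

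Markers of the proximal tubule, where the class is known to be made, had 0 of 16 genes past the threshold and a median log2 change of 0.09. Their summed level, which adds the linear signals of the tested genes, overlapped between the groups, at 3412 to 3876 times the 75th percentile in controls and 3435 to 4143 after o-anisidine. The summed level of 9 markers of injured or regenerating tubule (0 past the threshold) did not overlap, at 28.0 to 34.9 in controls and 126, 39.6 and 66.9 in o-anisidine 1, 2 and 3. That order of the treated rats is the order of the members' median shift, but most member probes had another order. Both Gsta4 probes were highest in o-anisidine 3. Lowest in o-anisidine 3 were A_43_P13967 of Gsta2, A_64_P004231 and A_64_P035291 of Gsta3 and the probe of Gsta5. A link between the members and these markers was not tested. Of the 9 injury markers, 7 had a log2 change above 0, with a median of 1.055. Without overlap 5 lay higher and 1 lower (Vcam1, -0.56), against 9.16% and 10.2% of genes with a symbol. Vim had -0.05. The brightest marker in o-anisidine 1 and 3 was Spp1, at log2 values of 6.39, 3.16 and 5.16 in o-anisidine 1, 2 and 3. Sums of 5 red blood cell markers (2 past the threshold, 513 to 715 against 1070 to 1288) and 5 leukocyte markers (1 past it, 35.5 to 49.5 against 50.2 to 54.3) were also apart. Of the leukocyte markers 2 of 5 were above 0, with a median of -0.02: Cd74 had a log2 change of 0.32 and Cd52, the one past the threshold, 2.12, against -0.20, -0.02 and -0.10 for Ptprc, Cd68 and Cd3e. The sum of 8 collecting duct markers was lower (225 to 238 against 147 to 207). The summed levels of markers of the thick ascending limb (4 genes), distal convoluted tubule (2), podocyte (5) and endothelium (5) overlapped. Every tested marker was well above background on all 6 arrays. The part of these cells in the members' values was not tested.

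The genes whose values over the 6 arrays were most like those of each member were sought among 12001 other genes with a symbol. The brightest Gsta2 probe was closest to Dpys (Pearson r = 0.994), Pinx1 (0.99) and Slc6a6 (0.976), and Gsta5 to Mb (0.985), Ctps1 (0.985) and Pgls (0.977). For Gsta1 the closest included Ccl19 (0.992) and Cks1b (0.973), and for the brightest Gsta3 probe Acp1 (0.992) and Pls1 (0.978). Gsta4 was closest to Gdf15 (0.987), Slc33a1 (0.98) and Abcb10 (0.98). With so many genes and 6 arrays such values are a description.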

How the data were processed

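Members and gene lists were chosen with earlier results of these data known. Spot intensity in the deposited scanner files came, per the file headers, from Agilent Feature Extraction 10.7.1.1 (10.7 per the submitters' processing notes), and was background-subtracted within each array and not scaled between arrays. Other deposited columns used, per the file headers, were flags for saturated, outlier and bright spots. The array design refers to the rn4 build, per the file headers. The authors' deposited value table holds an intensity that equals the processed signal over the array's 75th percentile. Its columns matched scanner files under other replicate numbers within each group, and numbering here follows the scanner files.

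Control spots were left out (61657 probes kept of 62976 spots), then 16 with an outlier flag and those that lacked a group with all 3 arrays well above background, which left 42036. Accessions were matched to the RefSeq table of GRCr8 (27460 probes to 15284 symbols). A gene in a list was its brightest kept probe. Log2 values were compared with limma 3.58.1 in R 4.3.3 (lmFit and eBayes, two-sided, Benjamini-Hochberg over all kept probes, threshold 0.05) and tested on simulated data. The planned normexp correction used the median spot signal, since the files lack the mean signal. Named were every member probe, list genes past the threshold (or that of smallest p), and the 3 genes most correlated with each member, of which some are not reported here. Some other list genes are given as examples chosen after their values were seen. Alternatives covered scaling, background, filter, slide, replicate block, variance model, value table and leaving out each array.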

Additional observations from a re-analysis of the deposited data

How the results depend on the processing

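All 9 member probes kept a log2 change above 0 under the 16 alternatives, and in 142 of 144 recomputed values they stayed on their side of the threshold. The exceptions were the dim Gsta3 probe under normexp background correction (log2 change 0.92) and under limma's trended, robust variance estimate (0.96), where 1 member probe passed. Under these settings 145 and 146 probes passed in all, against 29, and 3 and 4 pathway genes, against 1. With all 6 arrays well above background 0 pathway genes passed (limma), since Cyp1a1 was then not tested. With no filter on dim probes 10 probes passed, with slide as a fixed block 4, and within the slide that held both groups 2. With the replicate number as a block 1 probe passed and no member was called. Same-numbered rats had correlations of deviations of 0.012, 0.089 and 0.007, so little deviation was shared by number. Whether the numbers denote pairs cannot be told from these values. Leaving out 1 array gave 3 to 22 probes. The pairs of Gsta genes without overlap, 1 in the main comparison, numbered 2 with quantile normalization, 5 within the slide and 1 to 3 with 1 array left out. The counts within the slide and with 1 array left out rest on fewer arrays, where groups lie apart more readily. They cannot be set against the main count, and the cause of the shifts was not tested. The authors' value table gave a median of 0.31 over the members. The 16 alternatives are not independent checks, since changes of filter, variance model or replicate block leave the log2 change as it was. Precision rests on 3 arrays per group, and 5 of 9 intervals include 0.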
